A study of Andropogon gerardi with 36 samples.

Results

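Of the genes that the array annotation names only by a locus number, 86 were measured on most arrays of big bluestem RNA, and their ratios between partner plots are described here. A gene belonged to this set if its single symbol began with LOC and if at least 1 of its probes had a value on 28 or more of the 34 arrays that set different plots against each other. The annotation holds 539 such locus numbers among 583 symbols, and 1412 of the 19200 probes carry one of them. The 86 genes had 258 probes past the limit, and on each array the probes of a gene were averaged. At the edge of the rule, 8 genes entered with a best probe on exactly 28 arrays, among them LOC541650, LOC542737 and LOC732811, and 6 genes with a best probe on 27 arrays stayed out, among them LOC541774 and LOC732753. The genes were thus chosen by whether a value was present, not by its size, and 50 locus numbers had no value on any of the 34 arrays.

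Big bluestem (Andropogon gerardi) was sampled in sheltered plots of the Konza prairie, in a study concerned with warmer and differently watered soil. Total RNA of a plant in each of a pair of plots was labelled with Cy5 and with Cy3 and hybridised to a spotted array made for maize. Plots 2 and 3, written here as plots 2/3, were compared on 8 arrays, plots 4/5 on 7, plots 6/9 on 8, plots 7/10 on 4, plots 11/12 on 4 and plots 13/15 on 3. June gave 11 arrays, the sets named JulyA and JulyB gave 6 each, and August gave 11, with plants of subplot 1 on 16 arrays and plants of subplots 2 or 4 on the other 18. The sources used here do not give which plots or subplots were warmed or differed in water, which tissue was sampled or what the letter in a plant code stands for. A pair, a time and a subplot set therefore describe arrays, not treatments, and no group was a control.

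Every value is a log2 ratio within an array, so a value of 1 is a doubling of the ratio. Ratios are given with the lower-numbered plot over its partner, for which 5 arrays were reversed in sign, 3 of plots 2/3 and 2 of plots 7/10; these are called turned ratios. Whether the deposited ratio was Cy5 over Cy3 or the reverse is unstated. A sign therefore compares arrays with each other and does not say which plot had more transcript. Many arrays of a pair repeat a plant code, and where such arrays are not independent the p-values given here come out too small.

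In maize, a locus number is the placeholder symbol that NCBI gives a gene before a descriptive name is assigned, so such a list is held together by nomenclature and not by function. RNA of a related grass binds a maize probe according to how alike the sequences are, and a probe can also bind transcripts of gene copies. On a spotted array with 2 dyes, a ratio near 0 on the log scale says that both samples gave like signal, whatever the level of the transcript. The locus numbers are not paired with products or sequences in the sources used here, so no function is given for any of the 86 genes.

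The platform carried 23 probes with several symbols, which were left out. Counting only probes past the limit, as below unless stated, 46 of the 86 genes had a single probe and 18 had 2 or 3. The other 22 had 4 or more, up to 23 probes for LOC100037748. A value on all 34 arrays was available for 29 of the genes. The arrays themselves held values for 2199 to 9530 probes, with the lowest number on the June array of plots 11/12 from subplot 1. Between 48 and 86 of the genes were measured on an array, with a median of 83. The lowest number, 48, was on the June array of plots 11/12 from subplots 2 or 4.

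The locus-numbered genes differed in how far their ratios moved. The root mean square log2 ratio over arrays, which does not depend on the direction of a ratio, had a median of 0.50 over the 86 genes and ran from 0.24 to 1.28. Over all 1352 features, which are these genes, 11 other named genes and 1255 probes without a symbol, the median was 0.51. Most of these features are single probes, while the genes are means over probes. Probe by probe, the median was 0.46 for the 258 probes of the genes and 0.51 for the probes without a symbol. Single values over 1 in size made up 280 of 2734 for the locus-numbered genes (10.2%) and 3317 of 41452 for all features (8%), and 25 of the genes never passed 1 on any array.

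Genes with large ratios were mostly measured by a single probe. The highest root mean squares belonged to LOC542737 (1.28), LOC541791 (1.14), LOC732811 (1.11), LOC541895 (1.10), LOC100101525 and LOC542732 (both just above 1), LOC542212 (0.99), LOC542331 (0.95), LOC542605 (0.94) and LOC100125638 (0.94). All of these had 1 probe past the limit apart from LOC100125638, which had 2. Some had more probes on the platform, with 9 each for LOC542737 and LOC542732 and 6 for LOC732811. LOC541791, LOC541895, LOC542331 and LOC542605 had only 1 there. LOC542737 ran from -2.77 on a JulyB array of plots 6/9 to 2.58 on an August array of plots 7/10, with a median of -0.39 over 28 arrays. It was past 1 in size on 14 of them, 6 positive and 8 negative. The lowest root mean squares belonged to LOC542601 (0.24), LOC542533 (0.27), LOC542537 (0.28), LOC542420 (0.29) and LOC100037748 (0.29), which had 4 to 23 probes and never passed 1. LOC542601 lay between -0.43 and 0.59 on all 34 arrays, with a median of 0.03.

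The number of probes averaged went with the size of the ratios. The median root mean square was 0.59 for the 46 genes with 1 probe, 0.50 for the 18 with 2 or 3 probes and 0.37 for the 22 with 4 or more. The single probes of the last group had a median of 0.42 before averaging, also below the 0.59 of the single-probe genes. Averaging and the choice of gene were not separated further.

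**Figure D1:**
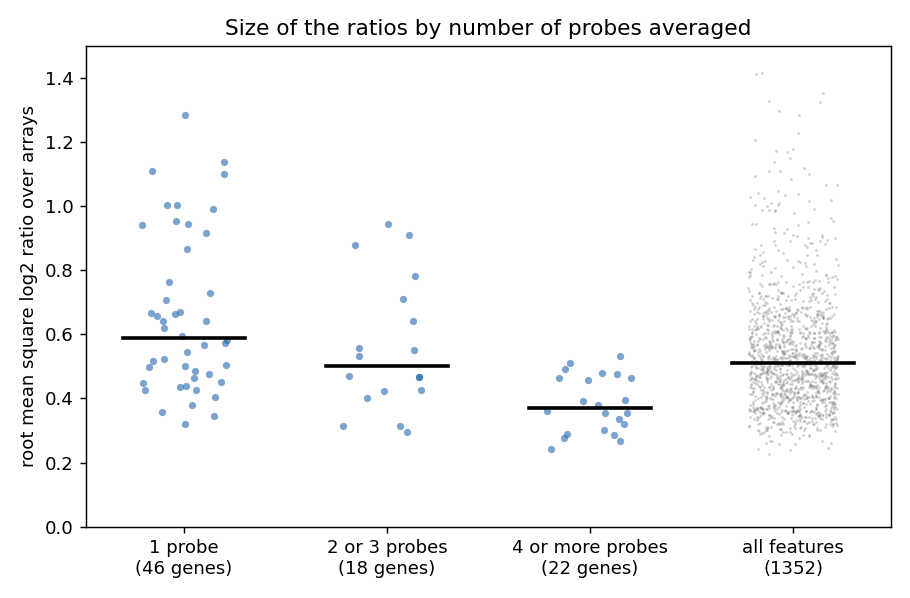
Each blue point is a locus-numbered gene and each grey point one of all 1352 features, with the root mean square log2 ratio over arrays on the vertical axis and the number of probes averaged on the horizontal axis; black lines are medians. The medians fall from 0.59 for 1 probe to 0.37 for 4 or more probes, and among the blue points the values above 1 are those of single-probe genes. Grey points reach 1.42.

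The typical size of these ratios was described by pair, month and subplot set without a test. The median size of the log2 ratio over the genes of an array was 0.33 ± 0.06 (SD, n = 34 arrays), and over all other features 0.33 ± 0.07. June arrays had 0.32 ± 0.07 (n = 11), JulyA arrays 0.35 ± 0.07 (n = 6), JulyB arrays 0.38 ± 0.05 (n = 6) and August arrays 0.31 ± 0.05 (n = 11). By pair the means ran from 0.30 in plots 7/10 and in plots 13/15 to 0.36 in plots 6/9. These means differed by no more than about the SD between arrays, which does not measure the uncertainty of a mean. On the JulyB arrays all other features had 0.31 ± 0.04, below the genes. In plots 11/12 they had 0.40 ± 0.12, against 0.32 ± 0.07 for the genes (n = 4). Single arrays carried more of the large ratios: 19 genes passed 1 in size on the June array of plots 6/9 from subplots 2 or 4, and 1 gene did on the June array of plots 7/10 from subplots 2 or 4.

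**Figure D2:**
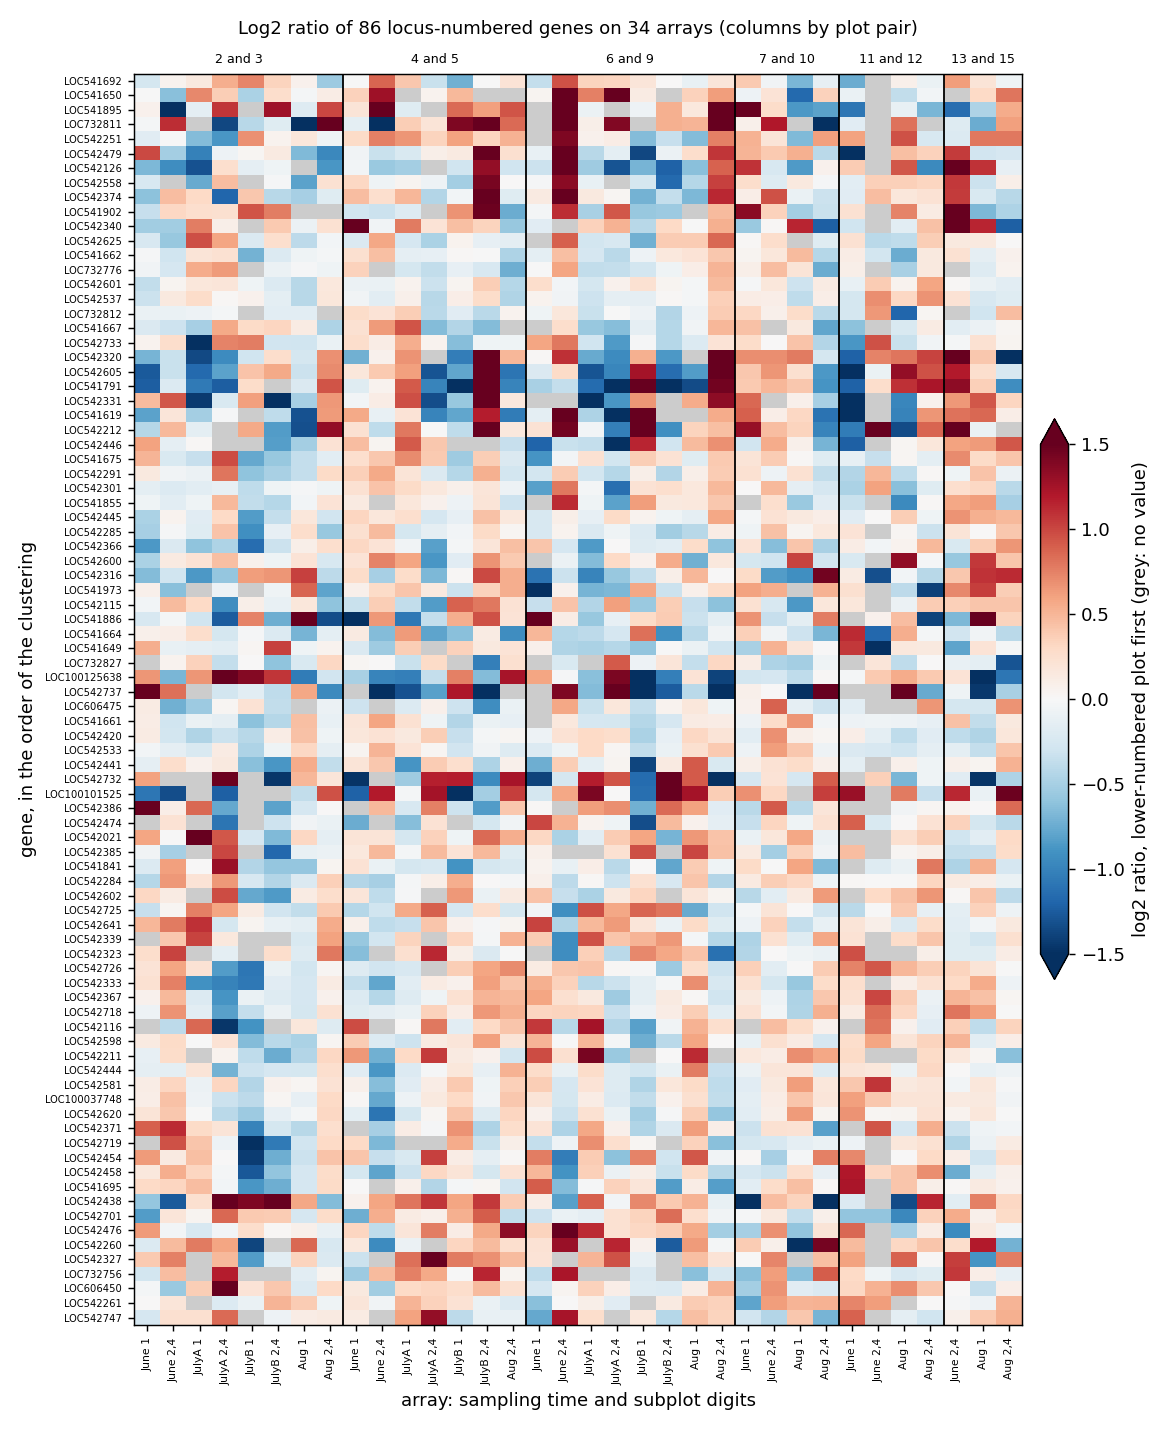
Log2 ratios of the 86 locus-numbered genes (rows, in the order of the clustering described in the text) on the 34 arrays (columns, by plot pair and then by time and subplot digits); red is positive, blue negative, grey no value, and colours are cut at 1.5 in size. Strong colours sit in a few rows, such as LOC541791, LOC542605 and LOC542737, and change sign between arrays of the same pair.

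Probes of the same locus-numbered gene mostly moved together. Over the arrays that a pair of probes shared, the uncentred correlation, which is taken about 0 and does not change when an array is turned, had a median of 0.61 for 821 pairs of probes of the same gene. It was over 0.5 for 71.4% of them and below 0 for 2.31%. For 32004 pairs of probes of different genes the median was 0.03, and 4.38% were over 0.5. No pair of same-gene probes was annotated with the same sequence record. Of the 40 genes with at least 2 probes, 31 had a median correlation over 0.5 between their probes. The highest were LOC100125638 (0.92), LOC542340 (0.91) and LOC542479 (0.90) with 2 probes each, LOC542438 (0.85) with 2 and LOC541664 (0.85) with 6. LOC541692 was below 0 (-0.18), and LOC542444 (0.10), LOC541649 (0.11), LOC542701 (0.29), LOC541675 (0.31) and LOC542725 (0.33) were low, so that a mean over their probes joins probes that moved differently. Probes that share an array share its depth and dye balance, which enter both kinds of pair.

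**Figure D3:**
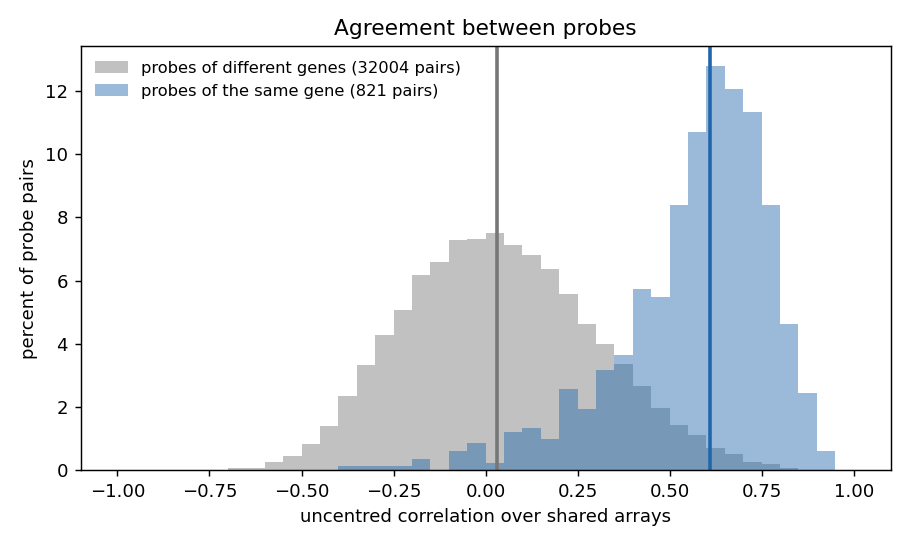
Percent of probe pairs (vertical axis) by uncentred correlation over shared arrays (horizontal axis), for 821 pairs of probes of the same locus-numbered gene in blue and 32004 pairs of probes of different genes in grey; vertical lines are the medians, 0.61 and 0.03. The distributions overlap, and 71.4% of same-gene pairs lie over 0.5.

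The first comparison was between partner plots, and no locus-numbered gene passed in it. In the limma F test over the 6 pairs, with a dye term, 0 of 86 genes had a Benjamini-Hochberg adjusted p under 0.05, as did 0 of all 1332 features tested (0%). At an unadjusted p under 0.05 there were 3 of the 86 genes, against 7.73% of all features. Pair by pair, the genes at an unadjusted p under 0.05 numbered 3 in plots 2/3 (4.43% of all features), 5 in plots 4/5 (8.63%), 3 in plots 6/9 (5.11%), 0 in plots 7/10 (0.826%), 1 in plots 11/12 (8.56%) and 6 in plots 13/15 (5.56%). Adjusted, each pair had 0 genes and 0% of all features. The genes were thus near or below the share of all features, and only in plots 13/15 above it, by about 1 percentage point (6.98% against 5.56%).

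LOC542438 came nearest to a difference between partner plots. On the 7 arrays of plots 4/5 its log2 ratios were 0.06 and 0.59 for June, 0.81 and 1.07 for JulyA, 0.59 and 1.06 for JulyB, and 0.38 for August. It was positive on all 7, with a mean of 0.65 ± 0.36 (SD, n = 7), and both of its probes had a positive mean there, 0.60 ± 0.45 on 6 arrays and 0.64 ± 0.45 on 7. In other pairs it took both signs: it ran from -1.27 to 1.72 in plots 2/3 (median 0.41, n = 8), from -0.81 to 0.90 in plots 6/9 (median 0.25, n = 8) and from -1.58 to 0.47 in plots 7/10 (median -0.58, n = 4).

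The limma coefficient of LOC542438 in plots 4/5 was 1.41 ± 0.30 (SE), with an adjusted p of 0.0593 for that pair and 0.298 in the F test. That coefficient is larger than the mean because it includes a dye term of -0.76 ± 0.20, estimated for this gene from the pairs run in both orientations. All arrays of plots 4/5 had the same orientation. In plots 2/3 the reversed arrays were both JulyB arrays and the August array of subplot 1, and the pair fit had no term for time. LOC542438 had turned ratios of 1.40 and 1.64 on those JulyB arrays. Dye and month cannot be told apart there, and the coefficient in plots 4/5 depends on the dye term. With ratios as deposited and no dye term, the limma value was 0.65 ± 0.25 and the adjusted p 0.284. Leaving out 1 array at a time moved the limma adjusted p from 0.00112, without the JulyA array of plots 2/3 from subplots 2 or 4, to 0.219, without the JulyB array of plots 4/5 from subplots 2 or 4, and it was under 0.05 for 9 of the 34 arrays left out. With each array centred on its median it was 0.0467, and without the random block 0.105.

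LOC542251 was the other gene with a positive ratio on all 7 arrays of plots 4/5. It ran from 0.28 to 0.75 there, with a median of 0.52 and a mean of 0.50 ± 0.19 (SD, n = 7), and rested on a single probe. Its limma coefficient was 0.57 ± 0.25 (SE), with an adjusted p of 0.49. In plots 6/9 the same gene lay between -0.65 and 1.40 (n = 7). A single sign on every array of a pair was found for 2 of 59 genes measured on all arrays of plots 4/5 (3.39%; 3.42% of all features).

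In the remaining pairs such genes were also about as frequent as among all features. There was 1 of 54 in plots 2/3 (0.787% of all features), LOC542301, which was negative on 8 of 8 arrays between -0.38 and -0.02 with a mean of -0.14 ± 0.11 (SD, n = 8), over 12 probes. Plots 6/9 had 0 of 57 (1.25%), plots 7/10 had 3 of 77 (5.54%), plots 11/12 had 9 of 40 (20%) and plots 13/15 had 21 of 82 (26.9%). With 3 or 4 arrays a single sign is frequent for any feature, as those shares show. As deposited, the counts were 4 of 54 in plots 2/3 (3.46% of all features) and 19 of 77 in plots 7/10 (16.4%), and the other pairs, with no turned array, kept theirs. In pairs with no turned array, plot and dye cannot be told apart for a sign. In plots 11/12 the 9 genes included LOC542458, with 1.20, 0.31, 0.42 and 0.70, and LOC606450, which lay between 0.31 and 0.70.

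Further genes leading the F test had smaller values. LOC541973 was 0.72, 1.03 and 0.37 on the 3 arrays of plots 13/15, with a limma coefficient of 0.96 ± 0.37 (SE; adjusted p 0.664 for the pair). LOC542445, a gene of 5 probes with a median correlation of 0.72, lay between 0.49 and 0.67 there, at 0.56 ± 0.09 (SD, n = 3), and its limma coefficient was 0.51 ± 0.21 (adjusted p 0.664). Neither gene overlapped 0 in that pair, and neither had a single sign in plots 2/3, 4/5 or 6/9. LOC542458, LOC542366, LOC542261, LOC542476, LOC542726 and LOC541650 completed the list, with LOC542316, and all had an adjusted p over 0.05 in the limma F test with turned ratios.

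LOC542316 had opposite signs on arrays of opposite dye orientation in plots 2/3. The 5 arrays with the lower-numbered plot in Cy5 had -0.65, -0.30, -0.86, -0.58 and -0.40, and the 3 turned arrays had 0.63, 0.67 and 1.02. The turned arrays were both JulyB arrays and the August array of subplot 1, so that orientation and month largely coincide in this pair and cannot be told apart for JulyB. As deposited, all 8 were therefore negative, averaging -0.64 ± 0.23 (SD, n = 8). In plots 7/10 the deposited ratio was positive on all 4 arrays, at 0.87 ± 0.47 (SD, n = 4), and in plots 13/15 it was 0.41, 1.09 and 1.12. The gene was measured by 1 of its 8 probes.

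With ratios as deposited and no dye term, limma gave 3 locus-numbered genes an adjusted p under 0.05 in plots 2/3, where 3.9% of all features passed. These were LOC542371 (0.55 ± 0.14, SE), LOC542316 (-0.64 ± 0.15) and LOC542719 (0.64 ± 0.15), each with a limma adjusted p of 0.0219. Turned, with a dye term, their values were 0.08, -0.03 and -0.25. Without the random block of the fit the limma adjusted p of each was 0.0562, and with 1 array left out at a time the number of such genes ran from 0 to 6. In the F test as deposited 1 gene passed, LOC542316 (adjusted p 0.00378), against 3.9% of all features. Over the remaining pairs as deposited 0 genes passed, where 3.53% of all features did in plots 11/12 and 0.375% in plots 13/15. Beyond these fits, the parts of plot and dye in these values were not tested.

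Over all the genes, arrays of opposite dye orientation in the same pair were more alike as deposited than turned. The correlation across genes between such arrays had a mean of 0.18 as deposited over 19 array pairs, 14 of them above 0. Turning reverses a single array of each such pair, so the turned mean is the same value with the other sign, -0.18. For 73 array pairs of the same plot pair and the same orientation the mean was 0.01, with 35 above 0. For 17 array pairs with the same plant codes in both channels it was 0.06 as deposited. These are correlations across genes, which are not independent replicates. The dye term had 7 of 86 genes at an unadjusted p under 0.05 (6.46% of all features) and 0 after adjustment (0%).

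The second comparison was over the season. In plots 2/3, 4/5 and 6/9, sampled at 4 times, 72 of the 86 genes could be tested. Of these, 0 passed the limma F test after adjustment (0% of all 884 features tested) and 3 had an unadjusted p under 0.05 (8.37% of all features). For August against June over the 6 pairs, 0 of 72 genes passed (0%) and 0 had an unadjusted p under 0.05 (4.98%). With ratios as deposited there were 0 genes for August against June as well, against 0.792% of all features. At an unadjusted p under 0.05 there was 1 gene in that limma F test, against 6.45% of all features.

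Month by month, the genes at an unadjusted p under 0.05 were most frequent in July of plots 6/9. Adjusted, 0 genes passed in each of the 9 contrasts of the pairs sampled at 4 times (0% of all features). For JulyB against June in that pair there were 11 of 72 genes, against 8.48% of all features, for JulyA 8 (8.26%) and for August 2 (5.66%). In plots 2/3 there were 7 for JulyA (7.81%), 6 for JulyB (9.39%) and 1 for August (3.73%). In plots 4/5 there were 2 for JulyA (5.54%), 3 for JulyB (8.71%) and 3 for August (6.11%). The August contrasts of the other pairs had 2 genes in plots 7/10 (3.39%), 2 in plots 11/12 (8.03%) and 3 in plots 13/15 (3.51%). Adjusted, 0 genes passed in these as well, against 0.113% of all features in plots 11/12 and 0% in the others. The excess in JulyB of plots 6/9 was not tested, and the June arrays are shared by the contrasts of a pair.

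LOC542725 led the test over 4 times, with a positive ratio on all 6 JulyA arrays. These were 0.75 and 0.59 with plots 2/3, 0.57 and 0.89 with plots 4/5, and 0.97 and 0.58 with plots 6/9, a mean of 0.73 ± 0.17 (SD, n = 6). The 6 values lay above every other value of the gene outside plots 6/9, where both JulyB arrays reached 0.87 and 0.81. In June the gene lay between -0.93 and 0.19, with a median of -0.15 and 2 of 11 arrays positive, and in August between -0.76 and 0.39, with a median of -0.12 and 4 of 11 positive.

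The limma difference between JulyA and June for LOC542725 was 0.83 ± 0.37 (SE) in plots 2/3, 1.10 ± 0.37 in plots 4/5 and 1.26 ± 0.37 in plots 6/9. JulyB against June gave 1.32 ± 0.37 in plots 6/9, and the limma adjusted p over the 4 times was 0.284. Its probes disagreed. Of the 6 probes used, 4 had JulyA means of 1.34, 0.95, 1.04 and 0.92 and were positive on every JulyA array that measured them. The other 2 had JulyA means of 0.16 and 0.01. Every JulyA array had the lower-numbered plot in Cy5, so the plot order and the dye cannot be told apart for this sign.

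A single sign on all 6 JulyA arrays was found for 4 of 58 genes measured on all of them (4.53% of all features). Beside LOC542725 these were LOC606450 (0.09 to 1.78, 4 probes) and LOC542340 (0.09 to 0.78) on the positive side, and LOC541886 (-1.25 to -0.12) on the negative side. On the 6 JulyB arrays it was 5 of 57 with turned ratios (6.06% of all features) and 3 of 57 as deposited (4.7%), with no gene in common: LOC542476, LOC542438, LOC542701, LOC542533 and LOC541661 when turned, and LOC542601, LOC542301 and LOC541667 as deposited. LOC542438 had 0.39 to 1.64 on the turned JulyB arrays, with a mean of 0.97 ± 0.49 (SD, n = 6), against a mean of -0.34 ± 0.71 in June (n = 10). As deposited, its JulyB mean was -0.05 ± 1.16 with 4 of 6 arrays positive, and its June mean -0.43 ± 0.66. None of the genes kept a sign on all 11 June arrays (0.775% of all features) or all 11 August arrays (0.237%).

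LOC100125638 and LOC542333 came next over the 4 times. In plots 6/9 LOC100125638 had ratios of 0.59 and -0.02 for June, -0.63 and 1.41 for JulyA, -2.16 and -1.02 for JulyB, and 0.21 and -1.39 for August. Arrays of the same month thus differed by more than 2 in JulyA, and the limma difference of JulyB from June was -1.88 ± 0.65 (SE; adjusted p 0.353). LOC542333 in plots 2/3 was 0.23 and 0.76 in June, -0.91 on the JulyA array of subplot 1 and lower still on the other JulyA array, with a limma difference of -1.45 ± 0.38 (adjusted p 0.161). For August against June, LOC542476 led, with a limma difference of -1.23 ± 0.55 in plots 6/9 (F test adjusted p 0.895). That difference was -2.14 without the June array of subplot 1 and -0.33 without the June array of subplots 2 or 4.

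The third comparison set the plot difference on subplot 1 arrays against that on arrays of subplots 2 or 4. Subplots of the same plot never met on an array, so they are not compared directly. Of 85 genes tested, 0 passed the limma F test after adjustment (0% of all 1266 features tested) and 5 had an unadjusted p under 0.05 (3% of all features). By pair, the genes at an unadjusted p under 0.05 numbered 10 in plots 6/9 (8.37% of all features) and 7 in plots 11/12 (5.77%). There were 2 in plots 2/3 (2.69%), 1 in plots 4/5 (1.18%), 1 in plots 7/10 (2.45%) and 2 in plots 13/15 (1.5%), and 0 after adjustment in each pair.

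LOC542454 led this test. In plots 6/9 its ratio was 0.77, 0.38, 0.74 and 0.93 on the subplot 1 arrays of June, JulyA, JulyB and August, and -1.04, -0.62, -0.30 and -0.05 on the other arrays of the same months. The sets did not overlap, with means of 0.71 ± 0.23 and -0.50 ± 0.43 (SD, n = 4 each). All 4 subplot 1 arrays of that pair carried the same plant codes, and 3 of the other 4 carried the same codes as one another, so subplot and plant cannot be told apart. The limma difference was 1.21 ± 0.31 (SE), with an adjusted p of 0.206 for the pair and of 1 in the F test. Each of its 3 probes had a positive mean on the subplot 1 arrays (0.83, 0.77 and 0.44) and a negative one on the others (-0.79, -0.22 and -0.38). In the remaining pairs the subplot sets of this gene overlapped or held too few arrays: in plots 2/3 it took both signs in each set, and in plots 4/5 the highest value, 1.03, was on an array of subplots 2 or 4. As deposited, LOC542454 was positive on all 8 arrays of plots 2/3 and all 4 of plots 7/10; in plots 6/9 no array was turned.

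Opposite signs in the subplot sets of plots 6/9 were found for 3 of 57 genes measured on all its arrays (1.56% of all features). The other 2 were LOC542458, at 0.31 ± 0.17 on subplot 1 arrays and -0.43 ± 0.34 on the others, and LOC542284, at 0.18 ± 0.18 and -0.35 ± 0.09 (SD, n = 4 each). Plots 2/3 had 0 of 54 (0.315% of all features) and plots 4/5 had 0 of 59 (2.38%). LOC542212 and LOC541664 followed in the subplot test through plots 11/12, each with 4 arrays. LOC542212 was -1.05 and -1.34 on subplot 1 arrays and 1.65 and 0.87 on the others there, with a limma difference of -2.46 ± 0.83 (SE; adjusted p 0.566). LOC541664 was 1.11 and 0.55 against -1.18 and -0.03, with 1.44 ± 0.48 (adjusted p 0.566).

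**Figure D4:**
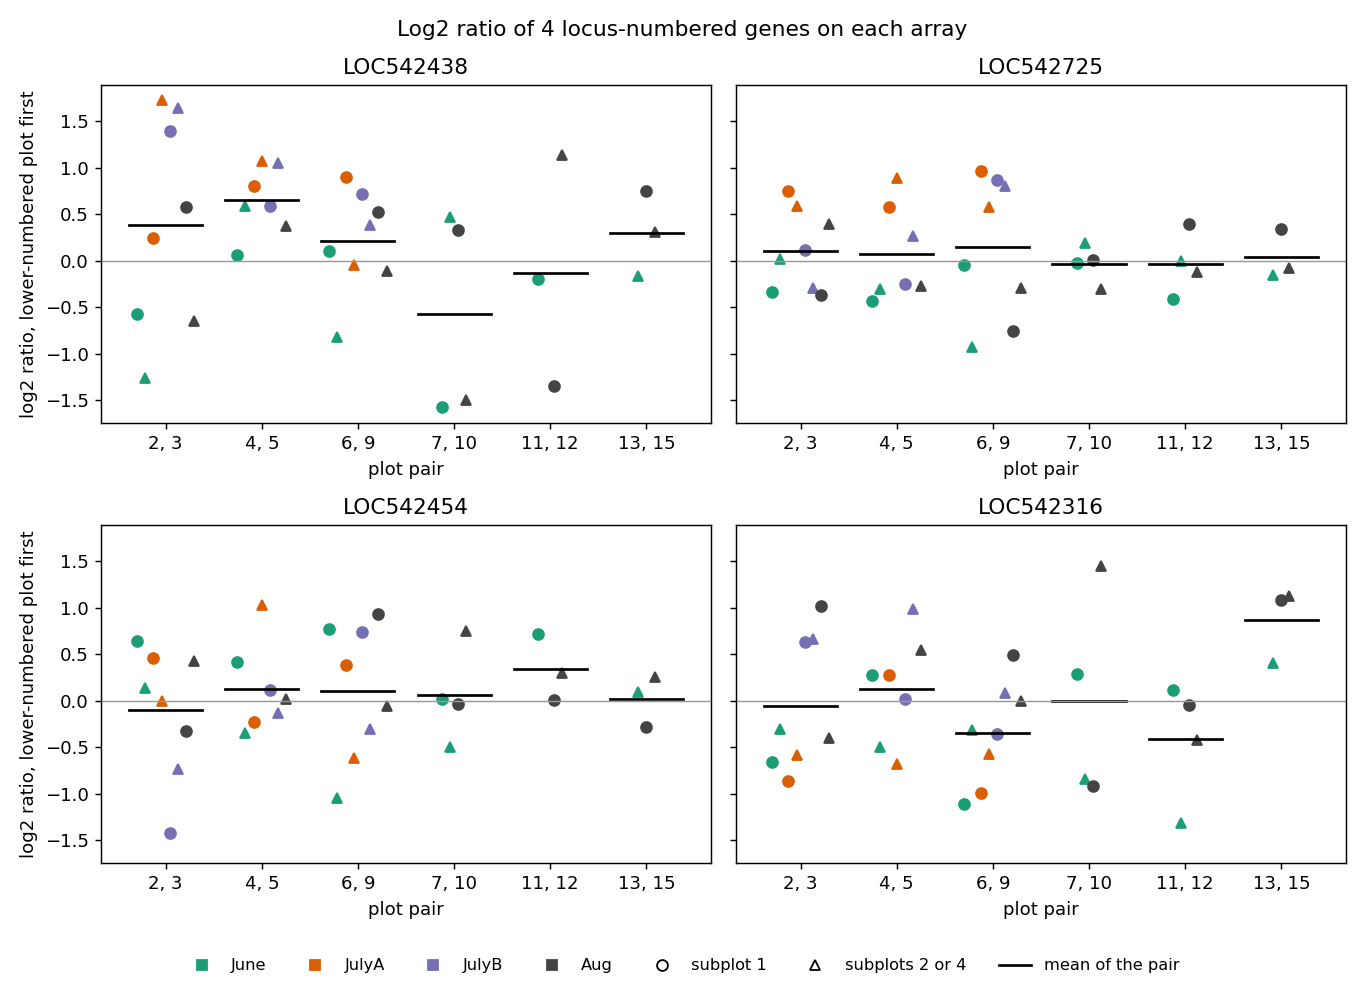
Log2 ratio (vertical axis, lower-numbered plot first) of LOC542438, LOC542725, LOC542454 and LOC542316 on each array, by plot pair (horizontal axis); colour gives the month, circles are subplot 1, triangles subplots 2 or 4, and black lines the mean of the pair. LOC542438 is above 0 on all 7 arrays of plots 4/5, LOC542725 on all 6 JulyA arrays, and LOC542454 on the 4 subplot 1 arrays of plots 6/9 only within that pair.

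The genes were then compared with each other. Over 3641 pairs of genes the uncentred correlation had a median of 0.04, was over 0.5 for 150 pairs (4.12%), over 0.7 for 28 (0.769%) and under -0.5 for 41 (1.13%). For all pairs of features the shares were 4.37%, 1.06% and 0.901%. The shares over 0.5 and over 0.7 were thus no higher for the locus-numbered genes than for all features. These shares are not like for like. A gene is a mean over its probes, while most features are single probes without a symbol that were not merged by transcript. The pairs named next were picked as the extremes of the 3641, so they are a description.

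LOC541791 and LOC542605, both with a single probe and both among the 10 genes with the largest ratios, had the highest correlation, 0.92 over 33 arrays. Their Pearson correlation was 0.92 and their Spearman correlation 0.91 with turned ratios, and they had the same sign on 30 arrays. The correlation was 0.92 without the 2 arrays farthest from the median, and 0.97, 0.93 and 0.90 within plots 2/3, 4/5 and 6/9. In JulyB of plots 6/9 LOC541791 was 2.24 on the subplot 1 array and -2.02 on the other, and LOC542605 was 1.25 and -1.14. In August of that pair the order was the reverse, with -1.34 and 1.45 for LOC541791 and -0.84 and 2.13 for LOC542605. In each of these months both genes thus had opposite signs on the arrays of the pair, and the same sign as each other.

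LOC542732 moved against both of them. Its correlation with LOC542605 was -0.76 over 29 arrays, the lowest of all pairs, and with LOC541791 -0.71 over 28 arrays. It had the same sign as LOC542605 on 4 arrays. In plots 6/9 it was -1.16 and 1.79 in JulyB and 0.92 and -1.71 in August, each time opposite to LOC542605. Without the 2 farthest arrays the correlation with LOC542605 was -0.71, and within plots 4/5 and 6/9 it was -0.84 and -0.87.

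Other pairs at the top were LOC542718 with LOC542367 (0.91 over 34 arrays, 6 probes each), LOC732776 with LOC541662 (0.86 over 30), LOC542581 with LOC100037748 (0.84 over 34), LOC541855 with LOC542301 (0.83 over 30) and LOC542212 with LOC541619 (0.83 over 28). LOC542718 and LOC542367 had the same sign on 31 of 34 arrays, and the median over their probe pairs was 0.75. LOC541855 with LOC542301 was uneven, with 0.36 within plots 2/3 and 0.92 within plots 6/9. For 2 of the 10 highest pairs the platform carried a probe annotated with both symbols: LOC542620 with LOC100037748 (0.92 over 34 arrays) and LOC542537 with LOC542601 (0.87 over 34). That probe was not used, but a shared annotation leaves transcripts of both genes able to bind the same probes, and these pairs are uncertain as separate genes. Another pair with such a probe, LOC541662 with LOC542386, had -0.03.

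**Figure D5:**
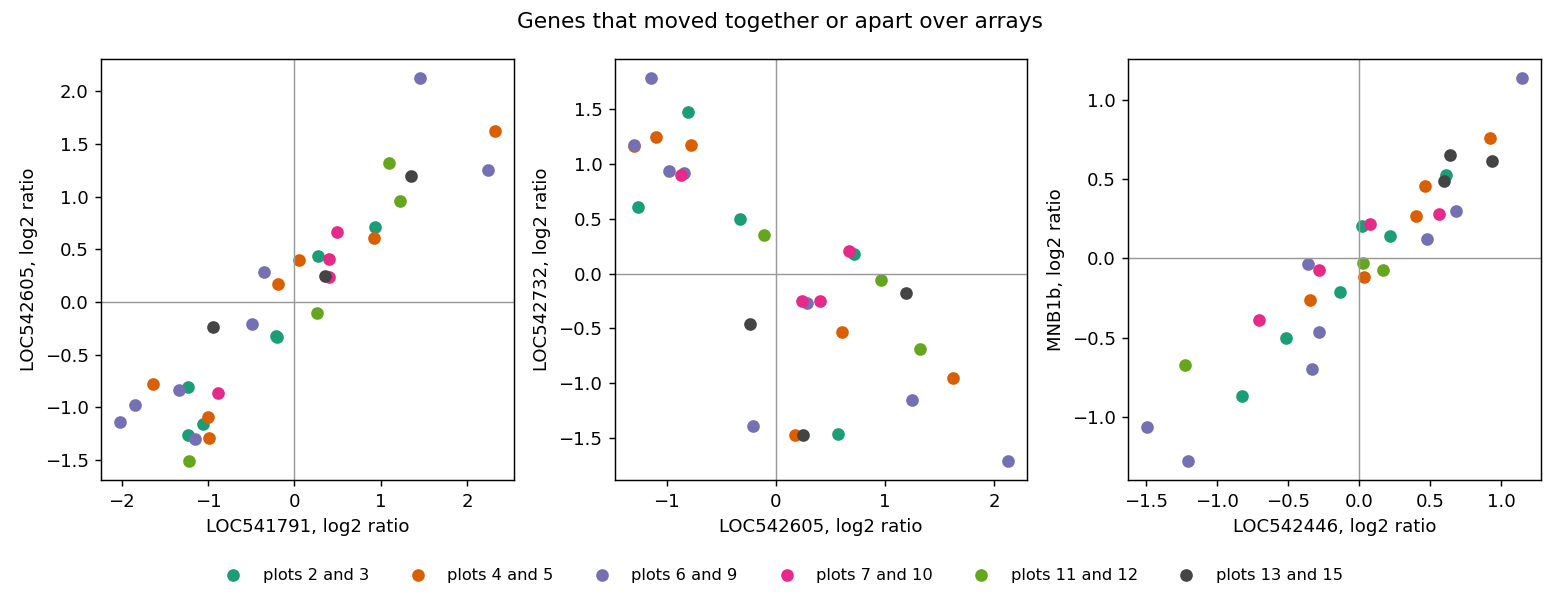
Each point is an array, coloured by plot pair, with log2 ratios on both axes: LOC541791 against LOC542605 on the left, LOC542605 against LOC542732 in the middle and LOC542446 against the mean of the MNB1b probes on the right. The uncentred correlations are 0.92, -0.76 and 0.94, and points of every pair lie along the same line on the left and on the right.

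Average linkage on these correlations, split where they fell under 0.5, gave 10 clusters of at least 3 genes that held 44 of the 86 genes. Another 8 clusters had 2 genes each and 26 genes stayed alone. The 9 genes of the largest cluster were LOC542444, LOC100037748, LOC542454, LOC542458, LOC542371, LOC542581, LOC542719, LOC542620 and LOC541695. Their mean ran from -0.87 on a JulyB array of plots 2/3 to 0.62 on a June array of plots 11/12. It was positive on all 4 arrays of plots 11/12, at 0.62, 0.49, 0.12 and 0.31, and took both signs in every other pair. The median over all locus-numbered genes measured was also positive on those 4 arrays, at 0.10, 0.28, 0.05 and 0.14. The number of genes behind the 0.49 was 6.

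The widest swings were those of a cluster of 6 genes, LOC541619, LOC542605, LOC541791, LOC542331, LOC542320 and LOC542212. Its mean ran from -1.44 on the June array of plots 11/12 from subplot 1 to 1.78 on the JulyB array of plots 4/5 from subplots 2 or 4. In plots 6/9 it was 1.41 and -1.24 on the JulyB arrays and -0.32 and 1.24 on the August arrays. No pair had a mean outside -0.26 to 0.36 with SDs of 0.61 to 1.07, so the swings were between arrays and not between pairs.

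A cluster of 5 genes, LOC542479, LOC542374, LOC542126, LOC542558 and LOC541902, was high on 4 arrays only. Its mean was 1.64 on the June array of plots 6/9 from subplots 2 or 4, 1.58 on the JulyB array of plots 4/5 from subplots 2 or 4, 1.32 on the June array of plots 13/15, and 0.92 on the August array of plots 6/9 from subplots 2 or 4. On the other arrays it lay between -0.72 and 0.66. On the same 4 arrays the cluster of 6 genes had 0.80, 1.78, 1.27 and 1.24. The 4 arrays came from 3 pairs and 3 months, and all from subplots 2 or 4. They were picked after their values were seen.

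A smaller cluster of LOC542333, LOC542367, LOC542718 and LOC542726 had a median correlation of 0.76. Its mean was positive on all 4 arrays of plots 11/12, at 0.34, 0.92, 0.32 and 0.10. There the median over all locus-numbered genes was positive as well. Other clusters held 3 to 5 genes, with LOC542446, LOC542301, LOC541675, LOC542291 and LOC541855 in one and LOC541662, LOC542625 and LOC732776 in another. Since clusters were formed from these values, none was tested.

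The closest match to a gene with a name was to MNB1b, which encodes a DNA-binding protein of the high mobility group type and had 136 probes on most arrays. LOC542446, with 1 probe, had a correlation of 0.942 with the mean of the MNB1b probes over 29 arrays (Pearson 0.94, Spearman 0.94), and the same sign on 26. None of the 1255 probes without a symbol was as close to MNB1b, the highest of them reaching 0.939. Without the 2 farthest arrays it was 0.94, and within plots 6/9 it was 0.94 over 8 arrays. In that pair LOC542446 had its lowest value, -1.49, on the JulyA array of subplots 2 or 4, where MNB1b had -1.06, and its highest, 1.15, on the JulyB array of subplot 1, where MNB1b had 1.14. On the August arrays LOC542446 was 0.48 and 0.68, and MNB1b 0.12 and 0.30. LOC541675 also went with MNB1b (0.80 over 34 arrays), and LOC542474 against it (-0.70 over 29).

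Matches to other named genes were looser. LOC542260 had 0.70 with Sod4A, an enzyme that clears superoxide, over 30 arrays, and 0.62 without the 2 farthest. Of the probes without a symbol, 0.0797% were as close to Sod4A. LOC542367 had 0.59 with hsp70-5, a chaperone of the heat shock family, over 34 arrays, and 2.15% of the probes without a symbol were as close. LOC606450 had 0.56 with TCTP, the translationally controlled tumour protein, but 0.27 without the 2 farthest arrays, so that the relation rests on those. LOC542458 had 0.65 with mbd111, of the methyl-CpG-binding domain proteins, over 30 arrays. Each is the closest of 86 genes to that named gene, and likeness over these arrays says nothing of shared function or control.

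On the array whose channels carried 1 and the same plant code, kept out of all comparisons, the 86 gene means ran from -8.53 (LOC542212) to 2.21, with quartiles of -0.70 and 0.41 and a median of -0.01. Their median size there was 0.48, against 0.33 ± 0.06 on the arrays of different plots. Taken probe by probe, the 256 probes of these genes with a value there had a median size of 0.33. LOC542726 (-7.83) and LOC732827 (-7.28) were the next lowest. That array held values for 13515 probes, more than any array used, and is the only one with the same code in both channels.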

How the data were processed

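Big bluestem RNA was compared on 36 spotted maize arrays with 2 dyes. The deposited values were log10 ratios, 1 per probe and array, and RNA was labelled with a Genisphere kit, per the labels. The sources used here do not give scanner, background correction, normalization, filters or ratio direction. Values were converted to log2. Of the 36 arrays, 1 had no values and 1 had the same plant code in both channels, which left 34. No other column was left unused (0). The files give no signal over background, so the number of arrays limits precision.

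Probes on at least 28 arrays were averaged per gene and array; unnamed probes stayed single. Ratios were turned to the lower-numbered plot first. Features that each pair measured on 2 or more arrays entered limma 3.58.1 (R 4.3.3, statmod 1.5.0 for the random block of pair and subplots, correlation -0.06), with pair coefficients and a dye term. Time and subplot tests used cell means where all could be estimated. P-values were Benjamini-Hochberg adjusted over all features, threshold 0.05. The fit was tested on simulated data. Replicate numbers follow accession order and pair nothing; the pairing by month and by plant code was tried as blocks.

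The members and lists were chosen with earlier results of these data known. Genes named lead the F tests (10 for pairs, 5 each for times, August against June and subplots), have the 10 highest or 5 lowest root mean squares, lie in the 10 highest or 5 lowest of gene pairs, in clusters of at least 3 genes (pairs with at least 24 shared arrays), or were measured on all arrays with at least 4 probes. Functional gene lists could not be applied, since locus numbers have no product names here. Alternatives were the deposited direction, no dye term, other blocks, centred arrays, single probes, other filters, other correlations and leaving out each array.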

Additional observations from a re-analysis of the deposited data

Results flagged for a closer look

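Among the 19 genes that led a test or a ranking, 85 combinations of gene and plot pair held 4 to 10 arrays, and in 3 of them (3.53%) the extreme array lay apart from the rest by Dixon's criterion. Chance flags about 1 in 20 groups, so this number is no more than chance gives. LOC542737, the gene with the largest ratios, was 1.22 on the JulyB array of plots 4/5 from subplot 1, where the nearest of the other 4 values was -0.81. LOC541791 was -0.89 on the August array of plots 7/10 from subplots 2 or 4, where the other 3 lay between 0.40 and 0.49. LOC100037748, the gene with the most probes past the limit, was -0.77 on the June array of plots 4/5 from subplots 2 or 4. The nearest of the other 6 values was -0.07. On that June array 76 of the 86 genes had a value, and the mean of the cluster that holds LOC100037748 was -0.71.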

How the results depend on the processing

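The counts of 0 locus-numbered genes after adjustment moved under few settings. With ratios as deposited and no dye term, 1 gene passed the F test over pairs and 3 passed in plots 2/3, each against 3.9% of all features. With the random block left out as well, a choice made after seeing the data, 1 passed the F test. With arrays centred on their median 1 gene passed in plots 4/5 (LOC542438). With only the features measured on all 34 arrays 1 passed in plots 11/12 (LOC100037748, 0.49 ± 0.18, SE, limma adjusted p 0.036). Apart from the deposited fit with the random block, the share of all features that passed was not counted for the settings of this section. Calls under those settings therefore cannot be set against all features or called particular to these genes. Leaving out 1 array at a time gave 0 to 1 genes in the F test, 0 to 1 in plots 4/5 and 0 to 1 for the dye term, each time LOC542438 (at most 1.57), and 0 for the other pairs and F tests with turned ratios. The F test passed without the JulyA array of plots 2/3 from subplots 2 or 4 or the August array of plots 11/12 from subplots 2 or 4, and the dye term without the former. In plots 4/5 it passed without any of 9 arrays: June and August of subplot 1 and JulyA of subplots 2 or 4 in plots 2/3, June and JulyB of subplot 1 in plots 4/5, June of subplots 2 or 4 and JulyA of subplot 1 in plots 6/9, and both August arrays of plots 11/12. Among single contrasts with an array left out, LOC606450 passed for JulyA against June in plots 2/3 (2.08, limma adjusted p 0.0417, without JulyA of subplot 1), LOC542316 for August against June there (3.23, 0.0322, without August of subplots 2 or 4), and LOC541649 in plots 11/12 for August against June (2.27, 0.0441, without June of subplot 1) and for subplots (2.73, 0.00459, without August of subplots 2 or 4). LOC542316 in plots 13/15 was 0.87 as deposited. The limma adjusted p of 0.00378 for this gene belongs to the F test over all 6 pairs. For plots 13/15 alone the smallest limma adjusted p of any locus-numbered gene as deposited was 0.221. LOC542725 in plots 6/9 (JulyB against June) was reversed, at -0.12, with only probes measured on all 34 arrays, since that leaves a probe with small ratios. Single probes gave 1 probe of LOC542454 a limma adjusted p of 0.0483 for subplots in plots 6/9. With 1 array left out, the median root mean square ran from 0.48 to 0.50, the median gene correlation from 0.03 to 0.04, pairs over 0.7 from 22 to 32 and clusters from 8 to 12. The labels give arrays no replicate numbers to pair by. Arrays of a pair and month as a random block pair the subplot sets by month. This gave 0 genes after adjustment in the F tests over pairs and subplots, in each pair and for the dye term. In the time tests pair and month is a fixed effect, so these ran without a random block, also with 0 genes. A block of arrays with the same plant codes, chosen after seeing the data, gave 0 genes in each F test, each pair and the dye term.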
